A study of Mus musculus with 12 samples.

Results

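Toll-like receptors are germline-encoded sensors of microbial molecules and of material released from damaged cells, and the 10 genes *Tlr1*, *Tlr2*, *Tlr3*, *Tlr4*, *Tlr5*, *Tlr6*, *Tlr7*, *Tlr8*, *Tlr9* and *Tlr13* are described here in CD11b-positive cells of the mouse cortex. The members were taken by symbol, 10 of the 55487 genes counted. No measured value entered this rule, but earlier results of these data were known when the members were taken. All 10 passed the filter on low counts that left 15425 genes for testing, with 31 counts or more in every library. *Tlr11* and *Tlr12*, which complete the family in the mouse, are given for comparison.

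RNA from 12 male mice was sequenced, 3 in each of 4 groups. Wild-type (WT) mice and *App* NL-G-F mice (*App* mice in what follows), in which human amyloid-beta sequence and familial Alzheimer mutations were knocked into the mouse *App* gene under its own promoter, received either PBS (vehicle, Veh) or recombinant human (rh) Bri2 BRICHOS R221E, a chaperone domain that acts on amyloid formation. The dose was 10 mg/kg, in 24 intravenous injections over 12 weeks from 9 months of age, and tissue was taken after 4 more weeks without injections. Cortices were dissociated with papain, and cells were bound to magnetic beads carrying antibodies against CD11b, an integrin that microglia share with other myeloid cells. The levels of all members are therefore those of a bulk sample, in which fewer cells of a type and less RNA per cell cannot be told apart.

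Toll-like receptors work as dimers. At the cell surface, the product of *Tlr2* pairs with that of *Tlr1* or *Tlr6* to bind bacterial lipopeptides, that of *Tlr4* binds lipopolysaccharide together with MD-2 and CD14, and that of *Tlr5* binds flagellin. In endosomes, *Tlr3* codes for the receptor of double-stranded RNA, *Tlr7* and *Tlr8* for receptors of single-stranded RNA and its breakdown products, *Tlr9* for the receptor of unmethylated CpG DNA and *Tlr13* for a receptor of bacterial ribosomal RNA. Signals pass through the adaptors MyD88 and TRIF to NF-kB and interferon regulatory factors, and microglia are the main cells of the brain that express the family.

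The libraries held 12433402 to 17889654 counts, so that 3 counts correspond to 0.168 to 0.241 CPM, counts scaled to library size. Summed over 10 microglia markers, the level was 27649.5 to 30453.1 CPM in Veh-treated WT mice and 24136.6 to 25655.7 CPM in Veh-treated *App* mice, with 8 of the 10 markers lower and 1 higher in the latter. With BRICHOS the sum was 26212.1 to 27593.4 CPM in WT mice, each below every Veh-treated WT mouse, and 25160.6 to 26688.9 CPM in *App* mice. 0 of the 10 markers were called for the treatment in either strain. Markers of other cells were present too, and the sums of those nearest to the members in function are given below. Oligodendrocyte markers summed to 7405 to 12943 CPM in Veh-treated WT and 2462 to 4366 CPM in Veh-treated *App* mice, and neuron markers to 9.16 to 13.4 and 3.74 to 4.20 CPM. The part of these cells in the members' levels was not tested. *App* itself had a log2 fold change of -0.34 (SE 0.16) between the Veh-treated strains, adjusted p = 0.12.

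In the GENCODE annotation of GRCm38, *Tlr1* (chr5:64924679-64933563) and *Tlr6* (chr5:64952031-64960097) are neighbouring paralogs on the minus strand, and *Tlr7* (chrX:167304929-167330558) and *Tlr8* (chrX:167242696-167264329) form another such pair. Reads that fit both members of a pair could have been split or dropped in counting, so small differences of these 4 genes are uncertain. *Tlr2* lies at chr3:83836272-83841767, *Tlr4* at chr4:66827584-66930284, *Tlr5* at chr1:182954788-182976044 and *Tlr9* at chr9:106222598-106226883. *Tlr3* shares exon sequence with *Gm45542* on the opposite strand, and whether the counting used the strand is not given in the sources used here.

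Promoter windows from RefSeq on GRCm38.p6 were found for 8 of the 10 members, not for *Tlr4* and *Tlr7*. The stretches printed here are those of the 2 members that were higher in Veh-treated *App* mice and of 3 of those that were lower. Each is written 5′ to 3′ on the gene's strand and ends before the first base annotated to the gene, and capitals mark a motif match.
Tlr2 (chr3:83841768-83841858, minus strand): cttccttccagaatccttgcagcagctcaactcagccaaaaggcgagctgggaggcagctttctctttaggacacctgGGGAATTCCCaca
Tlr1 (chr5:64933564-64933808, minus strand): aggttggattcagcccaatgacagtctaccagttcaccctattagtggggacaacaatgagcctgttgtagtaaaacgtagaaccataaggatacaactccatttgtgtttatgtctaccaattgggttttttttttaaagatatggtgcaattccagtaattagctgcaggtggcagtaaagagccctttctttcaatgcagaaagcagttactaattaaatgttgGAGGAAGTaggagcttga
Tlr5 (chr1:182954538-182954787, plus strand): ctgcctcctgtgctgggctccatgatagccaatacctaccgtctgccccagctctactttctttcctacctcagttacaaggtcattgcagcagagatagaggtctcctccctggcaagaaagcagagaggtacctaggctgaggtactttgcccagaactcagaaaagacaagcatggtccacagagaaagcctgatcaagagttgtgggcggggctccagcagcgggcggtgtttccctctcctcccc
Tlr8 (chrX:167264330-167264579, minus strand): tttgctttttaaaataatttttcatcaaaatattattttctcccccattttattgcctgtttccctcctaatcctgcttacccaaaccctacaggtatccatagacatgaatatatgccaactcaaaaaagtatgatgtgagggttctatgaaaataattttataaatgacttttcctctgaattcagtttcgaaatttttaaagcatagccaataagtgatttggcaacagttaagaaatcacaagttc
Tlr9 (chr9:106222348-106222597, plus strand): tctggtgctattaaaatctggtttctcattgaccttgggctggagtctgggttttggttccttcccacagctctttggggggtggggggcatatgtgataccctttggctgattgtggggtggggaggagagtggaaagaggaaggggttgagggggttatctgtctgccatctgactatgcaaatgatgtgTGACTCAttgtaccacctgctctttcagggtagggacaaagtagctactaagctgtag

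6 motifs were searched on both strands of the 250 bases before each start, namely GAGGAAGT of the myeloid factor PU.1, TGANTCA of AP-1, TTGCNNCAA of C/EBP, the E-box CACGTG, the kB motif of NF-kB and the motif of interferon regulatory factors. *Tlr1* held the PU.1 motif, which was in 2.44% of 32851 mouse promoter windows. *Tlr9* held that of AP-1, found in 6.75% of all windows. None of the 6 motifs was found before *Tlr2*, *Tlr5* or *Tlr8*. The *Tlr2* stretch held the palindromic kB decamer shown in capitals, a sequence added to the search after the stretch had been read, and 11 of the 32851 windows hold it. In the windows of the members not printed, *Tlr3* held the kB motif (1.21% of all windows) and *Tlr13* none of the 6. The first window of *Tlr6* held the motif of interferon regulatory factors (2.98%), and its second window that of C/EBP (1.74%). A second window of *Tlr1* held the E-box (6.02%). The *Tlr3* window, the first of *Tlr6* and the second of *Tlr1* lie inside the gene as annotated in GENCODE. The sequence after the first *Tlr6* window was found in no annotated transcript of that gene. These matches describe the letters in the windows only.

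To compare the members with each other, levels were divided by the length of the exons of each gene and are given as CPM per kilobase (kb). In Veh-treated WT mice, *Tlr2* was the most abundant member with 105.5 ± 1.61 CPM per kb (SD, n = 3), followed by *Tlr7* with 72.0 ± 2.25, *Tlr13* with 50.4 ± 3.04 and *Tlr9* with 40.2 ± 2.85 CPM per kb. These 4 were apart from each other and from all that followed. *Tlr3* with 17.6 ± 0.855 and *Tlr4* with 15.9 ± 0.911 CPM per kb came next, with *Tlr12* between them at 17.5 ± 1.66, and the ranges of neighbours in this trio overlapped. *Tlr1* with 13.7 ± 0.914, *Tlr6* with 10.1 ± 0.828, *Tlr5* with 5.75 ± 0.547 and *Tlr8* with 1.87 ± 0.258 CPM per kb closed the order without overlap. *Tlr11* was at the limit of detection, with 2 to 17 counts per library over all groups.

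**Figure D1:**
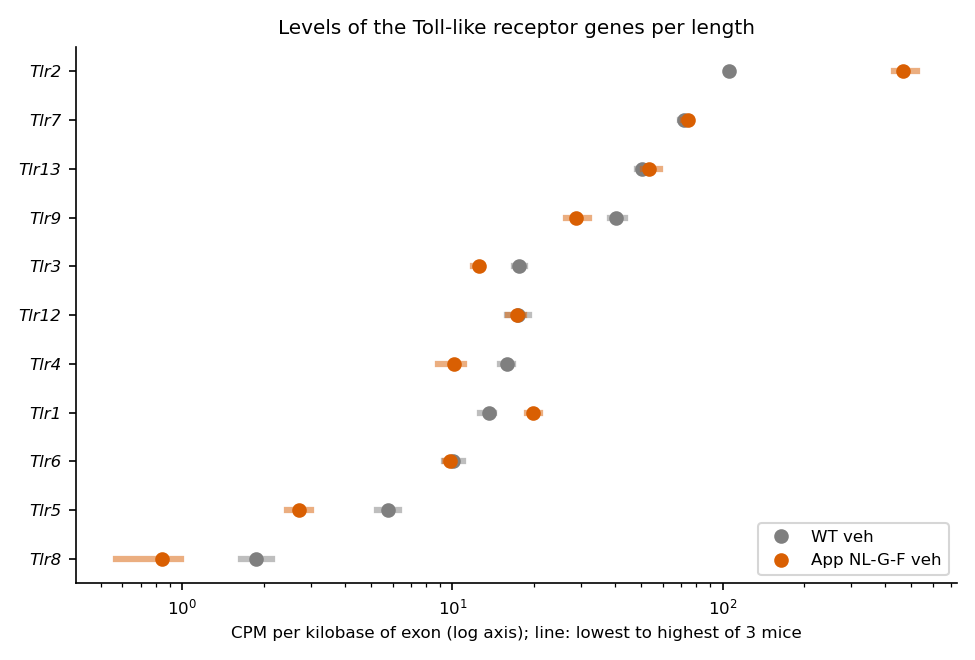
Levels of 11 Toll-like receptor genes in Veh-treated WT (grey) and *App* mice (orange), in CPM per kb of exon on a log axis, with points for the mean of 3 mice and lines from the lowest to the highest mouse. *Tlr2* stands at 105.5 CPM per kb in WT and 467.7 in *App* mice, while the points of *Tlr7*, *Tlr13*, *Tlr12* and *Tlr6* lie close together.

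The order differed in Veh-treated *App* mice. *Tlr2* reached 467.7 ± 49.9 CPM per kb and made up 68.6 ± 3.02% of the summed per-length level of the 10 members, against 31.7 ± 0.751% in Veh-treated WT mice (SD, n = 3). *Tlr1*, with 20.0 ± 1.12 CPM per kb, stood above *Tlr3* with 12.5 ± 0.517 and *Tlr4* with 10.1 ± 1.09 CPM per kb, both of which were above it in WT mice. The ranges of *Tlr4* and *Tlr6* overlapped here. The lowest members were again *Tlr5* with 2.70 ± 0.283 and *Tlr8* with 0.838 ± 0.235 CPM per kb. In the BRICHOS-treated groups, *Tlr2* made up 32.7 ± 1.89% of the sum in WT and 69.0 ± 6.80% in *App* mice.

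The comparison of Veh-treated *App* with Veh-treated WT mice addresses how the members differ in the presence of amyloid pathology. *Tlr2* and its partner gene *Tlr1* were higher, *Tlr8*, *Tlr5*, *Tlr4*, *Tlr3* and *Tlr9* were lower, and *Tlr6*, *Tlr7* and *Tlr13* did not pass the test. The 7 of 10 members called at an adjusted p under 0.05 stand beside 37.0% of all tested genes, with 20.1% of them called higher and 16.9% called lower. For each of these 7 members the 3 mice of one group were all outside the range of the other group, as was so for 50.8% of all tested genes. The median log2 fold change of the members was -0.26, against -0.02 over all tested genes.

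*Tlr2* was measured at 312.5, 320.9 and 320.8 CPM in the 3 Veh-treated WT mice and at 1300, 1581 and 1348 CPM in the 3 Veh-treated *App* mice. The groups were far apart, and the difference was 4.43-fold (95% interval 3.39 to 5.80, adjusted p = 3.05e-06). *Tlr1* was measured at 47.4, 42.2 and 47.6 CPM in WT and at 63.1, 66.5 and 70.6 CPM in *App* mice, a 1.46-fold difference (1.30 to 1.64, adjusted p = 0.000159). *Tlr6*, the other partner of *Tlr2*, had 34.7, 37.0 and 40.8 CPM in WT and 37.1, 35.0 and 37.5 CPM in *App* mice. Its groups overlapped, and the interval of the difference ran from 0.864-fold to 1.10-fold. The level of *Tlr2* was thus 7.75 ± 0.608 times that of *Tlr1* per length in WT and 23.5 ± 2.65 times in *App* mice, and 10.5 ± 0.729 and 47.9 ± 6.95 times that of *Tlr6* (SD, n = 3).

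*Tlr4*, the lipopolysaccharide receptor, was measured at 83.0, 88.6 and 93.1 CPM in WT and at 61.1, 49.3 and 57.9 CPM in *App* mice. It was 1.57-fold lower in *App* mice (log2 fold change -0.65, SE 0.12, adjusted p = 0.00122). *Tlr5*, the flagellin receptor, had 27.0, 30.4 and 25.2 CPM in WT and 14.4, 11.7 and 12.7 CPM in *App* mice and was 2.13-fold lower (log2 fold change -1.09, SE 0.11, adjusted p = 1.07e-05). Each mouse of the *App* group was below every WT mouse for both genes.

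Neutrophils, which express *Tlr4* and *Tlr5* in other settings, were looked at beside these values. The summed level of 6 neutrophil markers was 361, 294 and 33.8 CPM in the Veh-treated WT mice and 13.6, 35.0 and 24.8 CPM in the Veh-treated *App* mice, with all 6 markers lower in the latter. In the WT mouse with 33.8 CPM of these markers, *Tlr4* was at 93.1 and *Tlr5* at 25.2 CPM. The part of neutrophils in the differences of both genes was not tested.

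Among the endosomal members, *Tlr3* was measured at 90.3, 88.0 and 96.6 CPM in WT and at 66.7, 62.0 and 66.6 CPM in *App* mice, 1.41-fold lower (log2 fold change -0.49, SE 0.07, adjusted p = 0.000199). *Tlr9* had 135.2, 133.3 and 151.3 CPM in WT and 91.3, 96.0 and 111.5 CPM in *App* mice, also 1.41-fold lower (-0.49, SE 0.08, adjusted p = 0.00051). Neither gene overlapped between the groups. The neighbouring genes *Tlr7* and *Tlr8* differed from each other. *Tlr7* was at 283.5, 298.8 and 299.9 CPM in WT and at 312.1, 292.3 and 309.2 CPM in *App* mice, with overlapping groups and an interval of 0.95-fold to 1.13-fold. *Tlr8* was at 7.73, 5.92 and 6.48 CPM in WT and at 3.43, 2.03 and 3.55 CPM in *App* mice, 2.23-fold lower (log2 fold change -1.16, SE 0.23, adjusted p = 0.00228). *Tlr13* had 207.1 to 231.9 CPM in WT and 217.9 to 252.5 CPM in *App* mice, and the interval of its difference was 0.944-fold to 1.19-fold.

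The level of *Tlr8* moved with markers of border macrophages, the macrophages of the meninges and perivascular spaces. Summed over 6 markers, these were at 381 to 447 CPM in Veh-treated WT, 506 to 618 CPM in BRICHOS-treated WT, 168 to 226 CPM in Veh-treated *App* and 167 to 227 CPM in BRICHOS-treated *App* mice, and none was at 0 in any group. 5 of the 6 were lower and none was higher in Veh-treated *App* than in Veh-treated WT mice. The sum of 5 dendritic cell markers, 3 of them tested, followed this order, with means of 51.2, 68.6, 21.9 and 23.0 CPM in the groups as listed. *Cd209a* alone had 42.1 CPM in Veh-treated WT mice. 2 of the 3 were called lower in Veh-treated *App* mice, and *Zbtb46* was not (adjusted p = 0.759). The sum of 4 monocyte markers was 33.3, 51.5, 13.9 and 15.1 CPM, with 2 of the 4 called lower. *Ly6c2* went the other way, with 2.92, 3.58, 4.14 and 6.27 CPM, and *Chil3* was at 14.2 CPM in Veh-treated and 10.9 CPM in BRICHOS-treated WT mice. The part of these cells in the difference of *Tlr8* was not tested. Markers of B cells, which express *Tlr9* and *Tlr1*, summed to 11.0 to 12.4 CPM in Veh-treated WT and 5.11 to 6.10 CPM in Veh-treated *App* mice, and 1 of the 5 was called lower. Their part in the difference of *Tlr9* was not tested. Astrocyte markers were the ones that were higher in Veh-treated *App* mice, for 6 of 6, with 252 to 400 CPM in WT and 1125 to 3746 CPM in *App* mice. In the 3 Veh-treated *App* mice the astrocyte sums were 3746, 3340 and 1125 CPM, beside 1300, 1581 and 1348 CPM of *Tlr2*. The part of astrocytes in the difference of *Tlr2* was not tested.

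**Figure D2:**
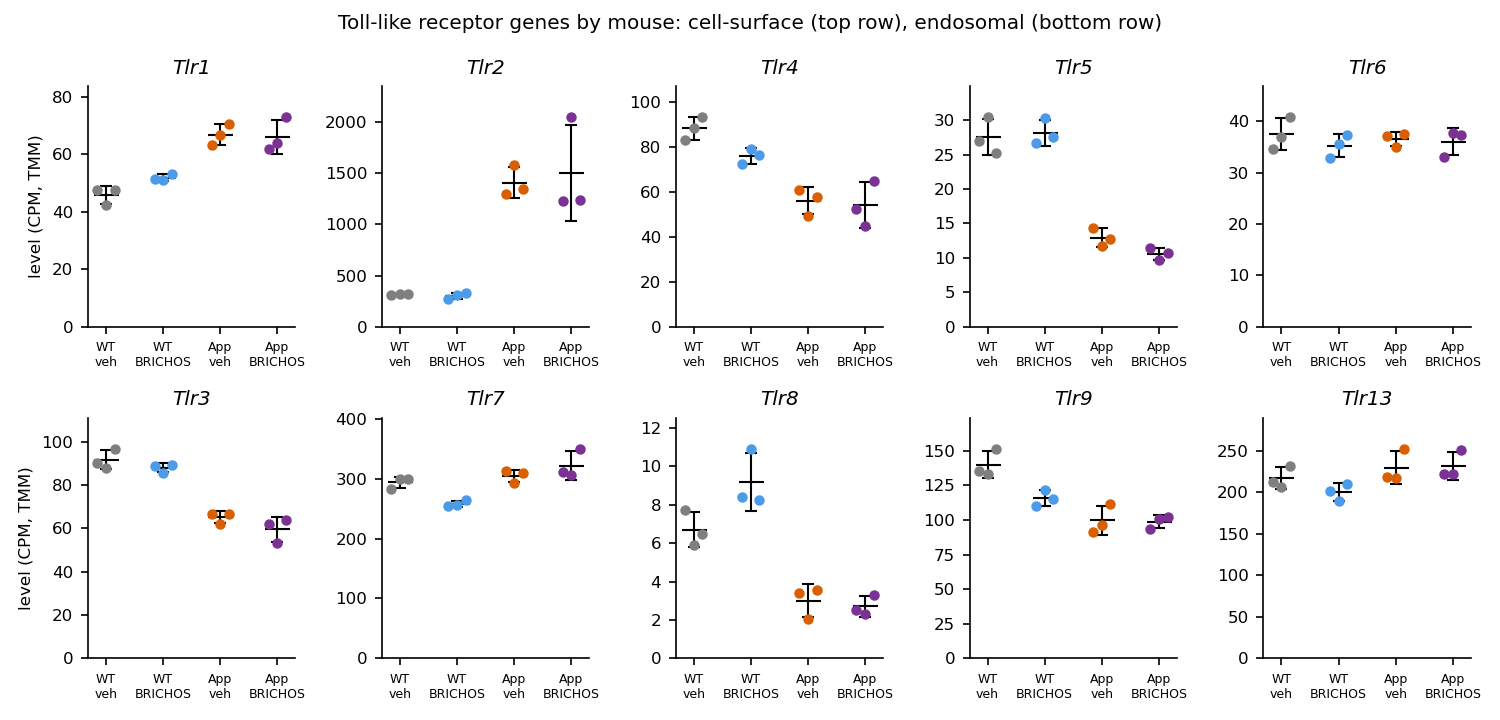
Level of each of the 10 Toll-like receptor genes in CPM on a linear axis from 0, with 1 point per mouse and bars for the mean ± SD of 3 mice in the WT Veh, WT BRICHOS, *App* Veh and *App* BRICHOS groups. *Tlr2* rises from at most 327.5 CPM in any WT mouse to at least 1226 CPM in any *App* mouse, and *Tlr5* and *Tlr8* fall to levels below those of every WT mouse.

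The same difference between the strains was measured a second time in BRICHOS-treated mice, which share no animal with the Veh-treated ones. 9 of 10 members were called, beside 42.5% of all tested genes, 4 of them higher (20.8% of all tested genes) and 5 lower (21.8%), and all 9 had groups that did not overlap, as had 51.8% of all tested genes. *Tlr2* was measured at 268.4, 315.5 and 327.5 CPM in WT and at 1226, 2046 and 1242 CPM in *App* mice, 4.95-fold higher (95% interval 3.78 to 6.49, adjusted p = 1.51e-06). *Tlr1* was 1.27-fold higher (1.14 to 1.42, adjusted p = 0.00296). *Tlr8*, with 8.43, 10.9 and 8.23 CPM in WT and 2.52, 2.30 and 3.32 CPM in *App* mice, was 3.40-fold lower (adjusted p = 0.000102), and *Tlr5*, with 26.7, 30.3 and 27.5 CPM in WT and 11.5, 9.65 and 10.6 CPM in *App* mice, was 2.66-fold lower (adjusted p = 1.32e-06). *Tlr3* was 1.48-fold lower (adjusted p = 6.71e-05) and *Tlr4* 1.41-fold lower (adjusted p = 0.00598).

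All 7 members called in Veh-treated mice thus had the same direction here. *Tlr7* joined them as higher, with 253.8, 256.6 and 263.7 CPM in WT and 310.6, 305.3 and 349.7 CPM in *App* mice (1.25-fold, 1.14 to 1.36, adjusted p = 0.000943). *Tlr13* was 1.16-fold higher (1.03 to 1.30, adjusted p = 0.0432), and *Tlr9* was 1.17-fold lower with 110.3, 121.6 and 115.3 CPM in WT and 93.7, 101.0 and 101.8 CPM in *App* mice (adjusted p = 0.0347). The calls of *Tlr9* and *Tlr13* were lost under other settings. For *Tlr9* the adjusted p was 0.0609 with the size factors of DESeq2, 0.081 and 0.0983 in the DESeq2 tests and 0.0548 without the filter, and over fits that left out single mice it ran from 0.0156 to 0.12. It was above the threshold without WT BRICHOS mouse 2 or 3, *App* Veh mouse 1 or any *App* BRICHOS mouse. *Tlr13* had 0.0762 when at least 10 counts were required in every library and 0.0234 to 0.152 over the fits that left out single mice, above the threshold without WT Veh mouse 1, WT BRICHOS mouse 1 or 2, or *App* BRICHOS mouse 2 or 3.

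**Figure D3:**
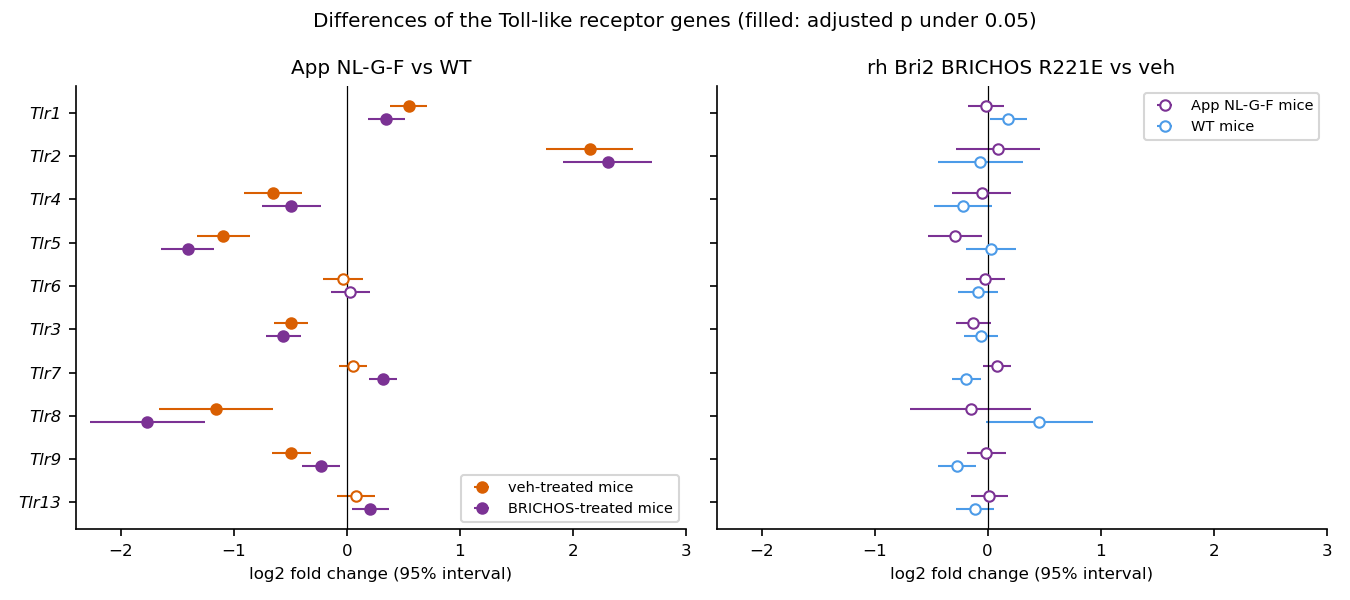
Log2 fold changes with 95% intervals for the 10 Toll-like receptor genes, between the strains on the left and between rh Bri2 BRICHOS R221E and Veh on the right. Filled points have an adjusted p under 0.05, which 7 genes reached in Veh-treated and 9 in BRICHOS-treated mice on the left, and none on the right.

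Next, the effect of rh Bri2 BRICHOS R221E was examined within each strain. In *App* mice, 0 of 10 members were called by edgeR's test, beside 0.00648% of all tested genes, and *Tlr5* was the 1 member with an unadjusted p under 0.05, beside 10.8% of all tested genes. DESeq2 called 0 members too in both of its fits, with 0 under an unadjusted p of 0.05. Over all genes it called 5 higher and 120 lower in the fit of all libraries, where 29171 had a p-value. In the fit of the compared groups it called 1 higher and 70 lower, where 26504 had a p-value. How many of these genes had an adjusted p, which a call needs, was not counted for any DESeq2 fit. *Tlr5* had 14.4, 11.7 and 12.7 CPM in Veh-treated and 11.5, 9.65 and 10.6 CPM in BRICHOS-treated *App* mice, each of the latter below each of the former (edgeR, log2 fold change -0.29, SE 0.11, adjusted p = 0.371). Groups that do not overlap were found for 13.4% of all tested genes in this comparison. For *Tlr2*, the 95% interval of the difference ran from 0.825-fold to 1.38-fold. 1 mouse set its width, since the BRICHOS-treated *App* mouse 2 had 2046 CPM of *Tlr2* and the other 2 had 1226 and 1242. The log2 fold change was 0.09 with this mouse and -0.18 without it, and neither passed the test. The other members had log2 fold changes between -0.15 (*Tlr8*) and 0.08 (*Tlr7*).

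In WT mice, edgeR called 0 of 10 members, beside 0% of all tested genes, and 3 had an unadjusted p under 0.05, as had 11.4% of all tested genes. DESeq2 also called 0, with 2 members under an unadjusted p of 0.05 in the fit of all libraries and 4 in that of the compared groups. Over all genes it called 68 higher and 17 lower in the former fit, where 29171 had a p-value. In the latter it called 115 higher and 20 lower, where 27198 had a p-value. The share of all genes under an unadjusted p of 0.05 was not counted with DESeq2. *Tlr9* was at 135.2, 133.3 and 151.3 CPM in Veh-treated and at 110.3, 121.6 and 115.3 CPM in BRICHOS-treated WT mice (edgeR, log2 fold change -0.27, SE 0.08, adjusted p = 0.253). *Tlr7* was at 283.5, 298.8 and 299.9 CPM with Veh and at 253.8, 256.6 and 263.7 CPM with BRICHOS (edgeR, -0.19, SE 0.06, adjusted p = 0.268), and *Tlr1* at 42.2 to 47.6 and at 51.2 to 53.1 CPM (0.18, SE 0.07, adjusted p = 0.396). The groups did not overlap for these 3, nor for *Tlr4* and *Tlr8*, as for 17.6% of all tested genes. *Tlr8* was at 5.92 to 7.73 CPM with Veh and at 8.23 to 10.9 CPM with BRICHOS, with a log2 fold change of 0.46 and a 95% interval of -0.02 to 0.93. Both strain comparisons use these same WT mice as one side, so the values of *Tlr7* and *Tlr9* given above are not independent of these.

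Whether rh Bri2 BRICHOS R221E acted unequally in the 2 strains was tested directly, as the interaction of strain and treatment. It passed for 0 of 10 members with edgeR, beside 0.00648% of all tested genes. With DESeq2 it also passed for 0 members, while 27 genes were called higher and 213 lower, where 29171 had a p-value. 2 members had an unadjusted p under 0.05 with either tool, beside 14.8% of all tested genes with edgeR. With the edgeR test these were *Tlr7* (difference of log2 fold changes 0.27, SE 0.08, adjusted p = 0.203) and *Tlr9* (0.26, SE 0.11, adjusted p = 0.309).

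The genes around the receptors were described by 8 lists of 73 genes, all of which were tested. The lists were written by hand with earlier results of these data known, so their shares of calls are descriptions only. In Veh-treated *App* against WT mice, 22 were higher and 14 were lower, that is 49.3% beside the 37.0% of all tested genes. In BRICHOS-treated mice 28 were higher and 11 lower, 53.4% beside 42.5%. The counts of single lists in Veh-treated mice, given in the following paragraphs, stand beside 20.1% of all tested genes called higher and 16.9% called lower. Within the strains, edgeR called 0 of 73 for rh Bri2 BRICHOS R221E, with 4 in *App* and 10 in WT mice under an unadjusted p of 0.05, beside 10.8% and 11.4% of all tested genes. DESeq2 called 0 in *App* mice, where 9 were under an unadjusted p of 0.05 in the fit of all libraries. In WT mice it called *Slc15a4* in the fit of the compared groups and 0 in that of all libraries, where 12 had an unadjusted p under 0.05. The DESeq2 calls over all genes are those given above for each strain, with no share at the unadjusted threshold.

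The co-receptors had 3 of 6 genes higher and 1 lower in Veh-treated *App* mice. *Cd14*, the co-receptor that hands lipopolysaccharide and lipopeptides to the surface receptors, was at 323 ± 22.3 CPM in WT and 1684 ± 153 CPM in *App* mice (SD, n = 3), a log2 fold change of 2.38 (SE 0.16, adjusted p = 6.18e-07), close to the 2.15 of *Tlr2*. *Ly86* and *Cd180*, which code for the MD-1 and RP105 pair that modulates TLR4 signals, had log2 fold changes of 0.87 and 0.63 (adjusted p = 8.3e-07 and 8.18e-06). *Ly96*, which codes for the MD-2 subunit of the TLR4 complex, had -0.08 (SE 0.13, adjusted p = 0.639), while *Tlr4* was lower. *Cd36*, a scavenger receptor that assists TLR2 with TLR6, was lower by 0.96 on the log2 scale (adjusted p = 0.000124), and *Lbp* did not pass.

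In BRICHOS-treated mice, *Cd14* (2.50), *Ly86* (1.13) and *Cd180* (0.81) were higher in *App* mice as well, and *Cd36* (-1.11) was lower. *Lbp*, which codes for the lipopolysaccharide binding protein, was called there (log2 fold change -2.75, SE 0.51, adjusted p = 0.00121), at 24.1 ± 8.22 CPM in WT and 3.61 ± 1.20 CPM in *App* mice. The sum of 4 choroid plexus and ependyma markers was 3182 to 6640 CPM in the former and 636 to 949 CPM in the latter, and its part in the difference of *Lbp* was not tested.

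Of 9 genes for the trafficking and cleavage of endosomal receptors, 4 were higher and 2 lower in Veh-treated *App* mice. *Unc93b1*, the chaperone that carries these receptors to endosomes, was at 1201 ± 58.7 CPM in WT and 900 ± 9.22 CPM in *App* mice (log2 fold change -0.42, SE 0.05, adjusted p = 0.000102). The proteases *Ctsl* and *Ctsb*, which cut the ectodomains of endosomal receptors among many other substrates, had log2 fold changes of 1.86 and 1.68 (adjusted p = 9.61e-09 and 1.79e-08). *Hsp90b1*, which codes for the folding chaperone gp96, was higher by 0.40 (adjusted p = 0.000138).

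Among the adaptors, none of the 6 was higher in Veh-treated *App* mice and 2 were lower, *Tirap*, which links TLR2 and TLR4 to MyD88, by a log2 fold change of -0.75 (SE 0.13, adjusted p = 0.000826) and *Pik3ap1* by -0.24 (adjusted p = 0.000904). *Myd88*, the adaptor shared by most members, was at 84.6 ± 3.14 CPM in WT and 81.6 ± 5.19 CPM in *App* mice (-0.05, SE 0.11, adjusted p = 0.732). *Ticam1* (0.21) and *Ticam2* (-0.02), the adaptors of TLR3 and TLR4 for interferon induction, did not pass in Veh-treated mice. Both passed in BRICHOS-treated mice, with log2 fold changes of 0.38 (adjusted p = 0.0281) and 0.28 (adjusted p = 0.00873).

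Of 18 kinases and ubiquitin ligases, 2 were higher and 6 lower in Veh-treated *App* mice. The 2 that were higher were *Ikbke*, an IKK-related kinase, with a log2 fold change of 2.64 (SE 0.33, adjusted p = 8.5e-05) from a low level of 1.20 ± 0.412 CPM in WT mice, and *Irak2*, a kinase of the MyD88 complex, with 0.38 (adjusted p = 0.000195). *Tab2*, a subunit of the TAK1 kinase complex, had the lowest p among those that were lower (-0.55, SE 0.05, adjusted p = 4.56e-06). Among 6 transcription factors, 0 were called by edgeR in Veh-treated mice, with 2 under an unadjusted p of 0.05. *Rel* had a log2 fold change of 0.74 (SE 0.31, adjusted p = 0.0768) and *Irf3* one of -0.22 (SE 0.08, adjusted p = 0.0524). In BRICHOS-treated mice 1 of the 6 was called higher and 0 lower, beside 20.8% and 21.8% of all tested genes. It was *Rel*, with a log2 fold change of 1.09 (SE 0.31, adjusted p = 0.0141). Of 10 inhibitors 4 were higher in Veh-treated *App* mice, with the deubiquitinase gene *Tnfaip3* first (1.22, SE 0.14, adjusted p = 5.25e-05), and 0 were lower.

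**Figure D4:**
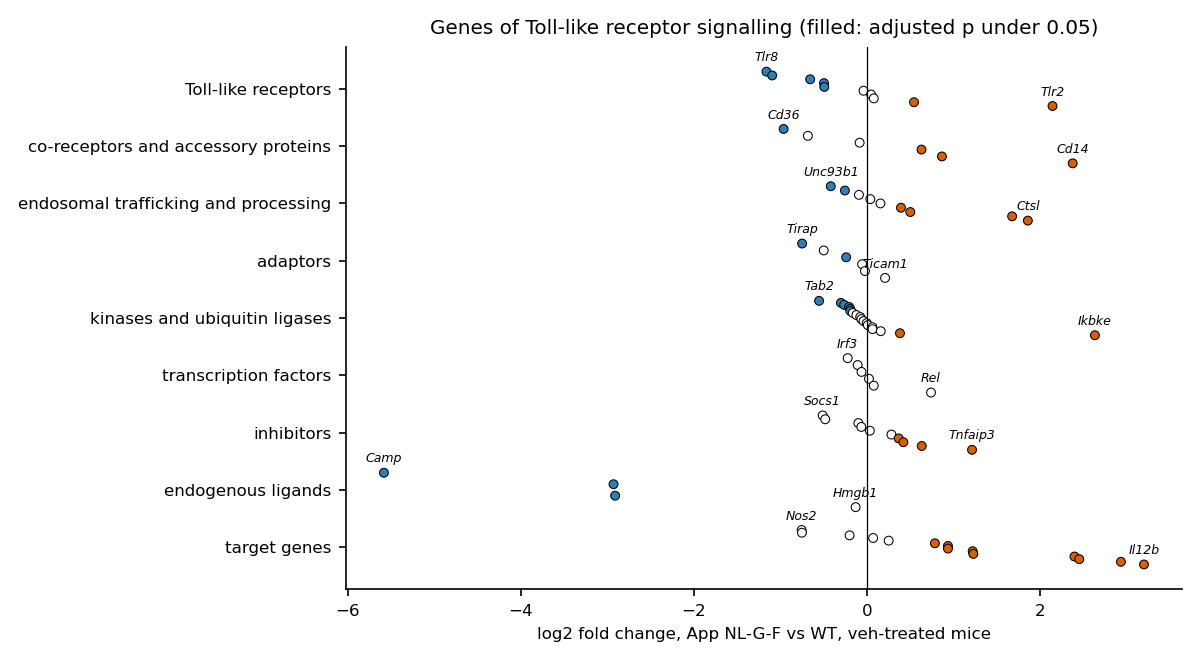
Log2 fold changes of single genes between Veh-treated *App* and WT mice for the Toll-like receptors and 8 lists of pathway genes, 1 row per list and 1 point per gene, with the lowest and highest gene of each row named. Orange points are higher and blue points lower at an adjusted p under 0.05, and the target genes show 9 of 14 in orange and 0 in blue.

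The list of target genes, which NF-kB and interferon factors induce after receptor engagement, had 9 of 14 genes higher and 0 lower, beside 20.1% and 16.9% of all tested genes, with a median log2 fold change of 0.94 against -0.02 over all tested genes. *Ptgs2*, the inducible cyclooxygenase, was at 72.2 ± 7.61 CPM in WT and 554 ± 77.0 CPM in *App* mice (log2 fold change 2.94, SE 0.24, adjusted p = 3.22e-06). *Il1b*, which codes for the cytokine IL-1β, was at 331 ± 20.6 and 1818 ± 399 CPM (2.46, SE 0.23, adjusted p = 7.05e-06), and the chemokine gene *Cxcl2* had a log2 fold change of 2.40 (SE 0.24, adjusted p = 1.52e-05). *Il6* (0.25), *Il10* (-0.75), *Ifnb1* (-0.20), *Ccl5* (0.07) and *Nos2* (-0.75) did not pass. In BRICHOS-treated mice 10 of 14 were higher and 0 lower, beside 20.8% and 21.8% of all tested genes. Receptor engagement itself was not measured, and other signals induce these genes as well.

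Genes for endogenous ligands had 3 of 4 lower in Veh-treated *App* mice. *S100a8* was at 59.1 ± 42.6 CPM in WT and 7.87 ± 3.33 CPM in *App* mice (log2 fold change -2.91, SE 0.74, adjusted p = 0.00943), and *S100a9* (-2.93, adjusted p = 0.0097) and *Camp* (-5.58, adjusted p = 0.0162) had the same direction, while *Hmgb1* did not pass (-0.13, adjusted p = 0.0883). The first 3 are granule or cytosol genes of neutrophils, and *S100a8* and *S100a9* are among the 6 neutrophil markers whose sum is given above. The groups overlapped for all 3, as the WT mouse with the lowest neutrophil sum was within the range of the *App* mice.

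For each member, the 3 tested genes with the most similar profile were found by the root mean square difference of their centred log2 CPM values over the 12 libraries. *Tlr2* was nearest to *Procr* (0.104), *Cdkn1a* (0.12) and *Cd14* (0.125), against an SD of its own profile of 1.12. *Tlr8* was nearest to *F13a1* (0.165), *Clec4a1* (0.168) and *Cd163* (0.177), with an own SD of 0.774. *F13a1* and *Cd163* belong to the 6 border macrophage markers.

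*Tlr5* was nearest to *Mtss1* (0.115), *Ceacam1* (0.143) and *Acy1* (0.15), and *Tlr4* to *March1* (0.0806), *Zfp738* (0.0932) and *Inpp4b* (0.0933). *Tlr9* was nearest to *Tspan14* (0.0634), *Pou2f2* (0.0687) and *Nfam1* (0.0735), and *Tlr3* to *Trio* (0.0586), *Sesn1* (0.0602) and *Sft2d2* (0.0658). *Tlr1* was nearest to *Mdh2* (0.0706), *Ddrgk1* (0.0755) and *Hivep3* (0.0776). *Tlr7*, *Tlr13* and *Tlr6* had the flattest profiles, with own SDs of 0.128, 0.115 and 0.0837, and were nearest to *Lpin1*, *Prkcb* and *Slc25a11*. For these 3, many genes of little variation would lie near. For the members called in both strain comparisons, the profiles include the difference between the strains, which the 6 mice of each strain share.

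**Figure D5:**
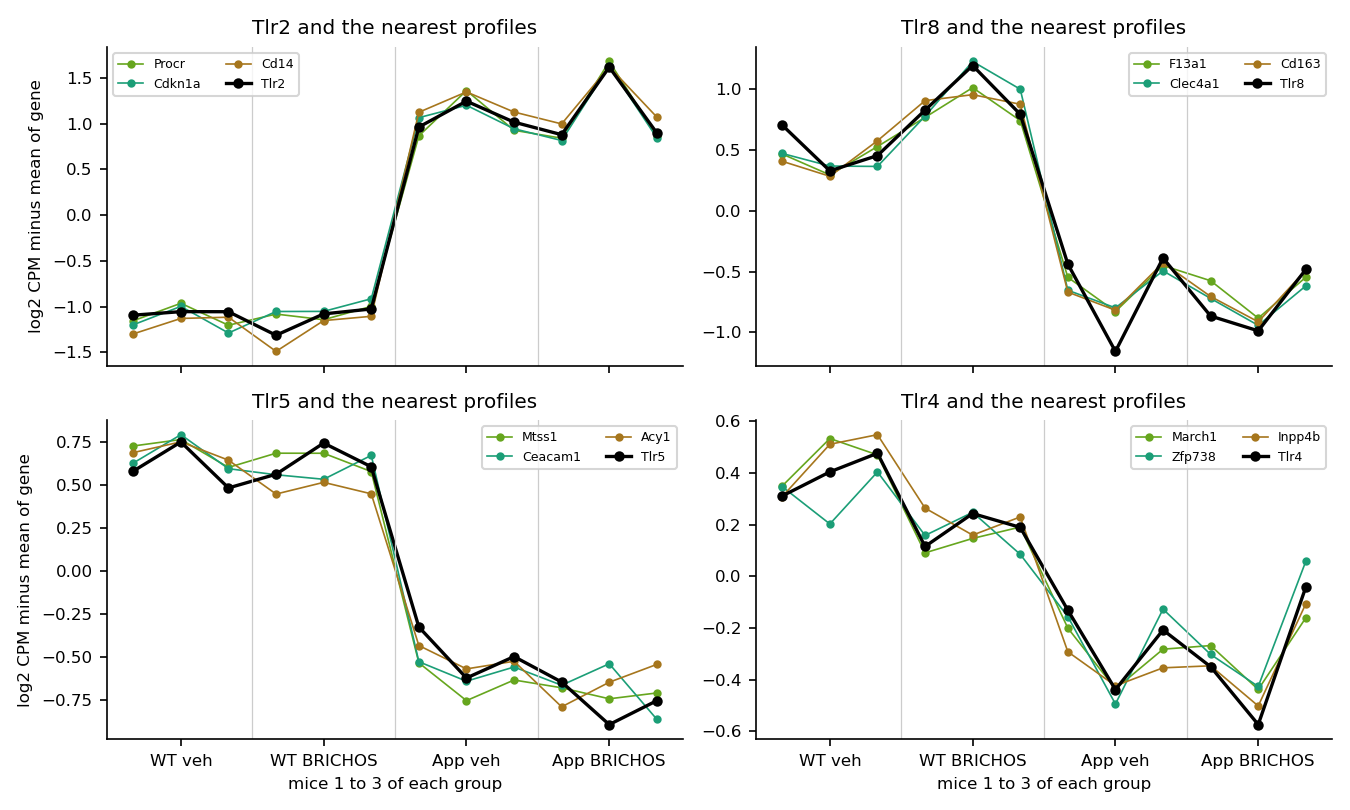
Log2 CPM of *Tlr2*, *Tlr8*, *Tlr5* and *Tlr4* (black), each minus its mean over the 12 libraries, with the 3 nearest genes in colour, for mice 1 to 3 of each group from left to right (lines only link the points of a gene). The *Tlr2* panel steps up and the other 3 step down between WT and *App* mice, and the highest *Tlr2* value is that of BRICHOS-treated *App* mouse 2.

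*Tlr6* was the 1 member called in no comparison, at 33.0 to 40.8 CPM over all 12 mice. *Tlr12* was at 45.0 to 61.1 CPM over all mice and was not called in any of the 5 contrasts, and the smallest of its adjusted p-values was 0.294.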

How the data were processed

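RNA of CD11b-positive cells from the cortex of 12 mice was sequenced after preparation with a stranded mRNA kit. The authors trimmed the reads with Cutadapt, aligned them to GRCm38 with STAR (2.6.1d per the submitters' processing notes), counted them per gene with featureCounts 1.5.1 and deposited raw counts without normalization. The strand setting of the counting is not given in the sources used here. Each column was assigned to a mouse by its name. Symbols were taken from GENCODE for 55141 of 55487 genes, and 26314 genes had no count. Library totals of 12433402 to 17889654 set the counting error.

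Genes were kept with filterByExpr of edgeR 4.0.16 (R 4.3.3) at a minimum count of 10, and TMM factors, glmQLFit and glmQLFTest were used on all 12 libraries with 1 mean per group. Each library is a separate mouse. P-values were adjusted by the Benjamini-Hochberg method across the 15425 genes tested, and a gene is called below 0.05. Levels are CPM with TMM factors, log2 CPM used a prior count of 2, and per-length levels use the union of exons. Alternatives were DESeq2 1.42.0, other scalings and filters, a cutoff of 1 on the absolute log2 fold change, the longest transcript as length, a replicate block and leaving out single mice. The tests were checked on simulated data. Figures were drawn with matplotlib 3.10.9.

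The members were taken by symbol and the lists were written by hand, both with earlier results of these data known. Named genes are all members, the direct partners of the receptors, up to 4 genes per list with the lowest p in a comparison, the 3 nearest profiles the 5 target genes that did not pass, and further genes of a list only where a sentence turns on them. *App* is given as the altered gene.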

Additional observations from a re-analysis of the deposited data

How the results depend on the processing

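In Veh-treated mice, the 7 calls between the strains were kept under every alternative run at the same threshold, with 7 called in each fit that left out 1 mouse; with a cutoff of 1 on the absolute log2 fold change 3 were called (*Tlr2*, *Tlr5* and *Tlr8*), and also 3 in BRICHOS-treated mice, where leaving out single mice gave 7 to 9. DESeq2 called 7 and 8. Rh Bri2 BRICHOS R221E and the difference of its effects gave 0 calls under every alternative. Equal replicate numbers were not taken as pairs, because no 2 groups compared directly had a correlation of deviations from the group means over 0.1 in all 3 equally numbered pairs. Veh-treated WT and BRICHOS-treated *App* mice, which meet only in the interaction, had 0.264, 0.136 and 0.168. Over the 18 equally numbered pairs of all groups the correlation ran from -0.114 to 0.264 (mean 0.0962, over 0.1 in 9), against a mean of -0.0474 for unequal numbers. 9 of 12 libraries correlated best, on average, with their own number, a hint from the data and not from the design. With the replicate number as a block, 7 members were called in Veh-treated mice, 9 in BRICHOS-treated mice and 0 for the treatment in either strain or the interaction.

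The signs that turned belong to differences that no fit called. They were, for *Tlr6* between the strains in BRICHOS-treated mice, -0.00138 with at least 10 counts in every library, and, for the treatment in *App* mice, *Tlr1* (0.000768 with DESeq2 size factors and 0.00245 with DESeq2) and *Tlr9* (0.00555 and 0.00784). Over fits that left out single mice, the log2 fold changes between the strains ran for *Tlr6* from -0.091 to 0.027 in Veh-treated and from -0.013 to 0.093 in BRICHOS-treated mice. For the treatment in *App* mice they ran from -0.0898 to 0.0319 for *Tlr1*, -0.184 to 0.223 for *Tlr2*, -0.204 to 0.0737 for *Tlr4*, -0.0495 to 0.0401 for *Tlr6*, -0.0532 to 0.0782 for *Tlr9* and -0.046 to 0.0882 for *Tlr13*, and in WT mice from -0.124 to 0.0122 for *Tlr2* and -0.0319 to 0.104 for *Tlr5*. The interaction ran from -0.121 to 0.292 for *Tlr2* and -0.115 to 0.0147 for *Tlr3*.

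With the length of the longest transcript, levels per kb in Veh-treated WT and *App* mice were 15.1 and 22.1 CPM for *Tlr1*, 20.8 and 14.8 for *Tlr3*, 21.6 and 13.8 for *Tlr4*, 7.22 and 3.38 for *Tlr5* and 75.5 and 78.1 for *Tlr7*, so that *Tlr4* stood above *Tlr3* in WT mice. Depth limits *Tlr8*, with as few as 31 counts in a library, and *Tlr11*.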
